A study of Homo sapiens with 12 samples.

Results

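The clustered protocadherin genes are 53 genes in 3 neighbouring clusters on the long arm of human chromosome 5, and they were taken here as every gene of the deposited tables whose symbol begins with PCDHA, PCDHB, PCDHGA, PCDHGB or PCDHGC followed by its number, with PCDHAC1 and PCDHAC2 included and pseudogenes left out. They make up 53 of the 61163 genes in the tables, with 15 in the alpha family, 16 in the beta family and 22 in the gamma family. PCDHA14 also fitted the pattern of symbols, but it is annotated as a pseudogene and was not a member. RNA had been sequenced from 2 fractions, nucleolar (NO) and cytoplasmic-nuclear (CN), in HEK UL1 KO and in HEK WT, with 3 biological replicates in each of the 4 groups and 12 libraries in all. HEK WT is the wild-type HEK293T line, an immortalised human embryonic kidney line that carries the SV40 large T antigen, and HEK UL1 KO is the same line after CRISPR-Cas9 editing of HNRNPUL1 with a pair of guides against exons 2 and 3. HNRNPUL1 encodes the RNA-binding protein hnRNP UL1. Whether the knockout line was grown from 1 clone is not given in the sources used here, so an effect of the lost gene and a property of the line cannot be told apart.

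Clustered protocadherins are cell surface adhesion proteins that bind copies of themselves on neighbouring cells, and they are best known for giving single neurons an identity by which their branches recognise and avoid each other. In the alpha and gamma clusters each variable first exon has its own promoter and is spliced to a set of constant exons that all genes of the cluster share, whereas each beta gene is a single exon. In neurons the promoters are chosen largely at random, by contacts between the promoters and distant enhancers that CTCF and cohesin hold together and that DNA methylation of the promoters prevents.

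The alpha cluster lies at chr5:140786140-141012347, the beta genes at chr5:141051374-141249365 and the gamma cluster at chr5:141330514-141512975 (GRCh38, plus strand for all 3). Promoter windows of 300 bases are shown for 6 genes because the differences between HEK WT and HEK UL1 KO described below begin or are centred at 5 of them, with PCDHA9 as the last alpha gene before the point where they begin. Each window runs from 250 bases before to 50 bases after the RefSeq start of the gene on the plus strand. Capitals mark CGCT, or AGCG where it lies on the other strand. CGCT is the core of a sequence element conserved in many clustered protocadherin promoters. A match alone does not show that a window holds that element.
PCDHA9, chr5:140848132-140848431: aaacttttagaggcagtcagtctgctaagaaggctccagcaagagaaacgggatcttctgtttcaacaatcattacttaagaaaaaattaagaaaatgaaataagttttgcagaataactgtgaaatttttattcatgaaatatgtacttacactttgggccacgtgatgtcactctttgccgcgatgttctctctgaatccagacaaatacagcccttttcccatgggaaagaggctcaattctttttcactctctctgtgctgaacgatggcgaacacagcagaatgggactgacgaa
PCDHA10, chr5:140855647-140855946: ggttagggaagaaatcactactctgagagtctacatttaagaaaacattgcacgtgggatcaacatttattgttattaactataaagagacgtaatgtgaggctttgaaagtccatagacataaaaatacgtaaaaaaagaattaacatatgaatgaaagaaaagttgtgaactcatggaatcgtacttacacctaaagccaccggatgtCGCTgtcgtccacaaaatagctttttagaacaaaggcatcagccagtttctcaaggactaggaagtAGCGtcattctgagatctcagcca
PCDHAC2, chr5:140966226-140966525: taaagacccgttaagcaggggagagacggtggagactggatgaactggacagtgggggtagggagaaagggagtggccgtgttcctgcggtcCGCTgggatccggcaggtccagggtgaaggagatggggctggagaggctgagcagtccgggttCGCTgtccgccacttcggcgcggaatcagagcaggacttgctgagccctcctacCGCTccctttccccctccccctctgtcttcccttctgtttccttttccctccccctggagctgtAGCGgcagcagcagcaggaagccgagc
PCDHB2, chr5:141094365-141094664: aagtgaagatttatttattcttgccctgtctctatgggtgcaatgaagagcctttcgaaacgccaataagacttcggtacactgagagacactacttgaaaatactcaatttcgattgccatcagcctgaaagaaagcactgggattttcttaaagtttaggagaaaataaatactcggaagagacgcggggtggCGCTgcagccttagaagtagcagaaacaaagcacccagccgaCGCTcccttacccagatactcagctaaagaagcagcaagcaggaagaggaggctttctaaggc
PCDHGA11, chr5:141420801-141421100: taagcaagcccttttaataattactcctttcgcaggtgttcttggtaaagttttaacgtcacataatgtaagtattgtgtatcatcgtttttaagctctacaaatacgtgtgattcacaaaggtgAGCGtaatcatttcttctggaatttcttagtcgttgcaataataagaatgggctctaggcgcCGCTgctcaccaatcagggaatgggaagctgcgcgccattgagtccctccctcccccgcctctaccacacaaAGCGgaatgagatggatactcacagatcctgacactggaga
PCDHGC3, chr5:141475716-141476015: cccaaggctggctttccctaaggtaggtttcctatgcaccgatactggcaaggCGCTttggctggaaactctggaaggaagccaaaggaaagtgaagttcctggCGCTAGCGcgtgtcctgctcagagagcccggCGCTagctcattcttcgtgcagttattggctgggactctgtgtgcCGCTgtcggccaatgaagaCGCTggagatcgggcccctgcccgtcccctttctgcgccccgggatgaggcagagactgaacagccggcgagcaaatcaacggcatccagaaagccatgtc

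PCDHA10 held 2 CGCT matches, PCDHAC2 4, PCDHB2 2, PCDHGA11 3 and PCDHGC3 6, and PCDHA9 held 0. The windows of PCDHA1, PCDHA2 and PCDHA4 to PCDHA8, which lie before PCDHA9, held 1 or 2 each, as did those of PCDHA11 and PCDHA12. Of the 47 members with a window in the RefSeq table, 46 held at least 1 match on either strand (97.9%), against 24584 of all 35116 promoter windows of the same length. The second motif searched was AGNNGGC, a part of the CTCF core, which was held by 16 of the 47 members (34.0%) and by 64.2% of all windows. Both motifs are short, and a match is only a run of letters in the window.

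The deposited alpha and gamma values were not separate measurements of each gene. A gene of these clusters is annotated from its own first exon to the shared constant exons, and the count of every alpha or gamma gene was at least as high as that of the next gene along the chromosome, in 180 of 180 comparisons between neighbours over the 12 libraries for alpha and in 252 of 252 for gamma. The same was seen elsewhere in the tables, where a gene on the same strand as the gene whose intron holds it never exceeded it in 60 of 61 pairs, against 42 of 108 pairs on opposite strands. The values thus behaved as reads on the gene's strand over its whole span, introns included, with a read counted for every gene that covers it. The PCDHA1 count therefore held all reads of the alpha cluster and the PCDHGA1 count all reads of the gamma cluster. For this reason the deposited counts are given first, and then the difference between neighbours, which is the number of reads from the start of a gene to the start of the next and is called the gene's segment here. The last alpha segment is the constant region, listed in the tables as PCDHACT, which is not a member. The last gamma segment, PCDHGC5, runs through the gamma constant exons.

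The libraries held 37141666 to 104040073 counts, of which 55.3% to 78.7% were rRNA, and little of the rest fell on these genes. The whole alpha cluster had 46 to 204 reads per library in CN and 78 to 623 in NO. CPM below is the usual depth-scaled count, taken over the library size after TMM scaling, the normalization of edgeR. Per length of the annotated span, the alpha cluster had 3.97 CPM per Mb in HEK WT and 11.4 CPM per Mb in HEK UL1 KO in CN, beside a median of 36.2 and 37.1 CPM per Mb over 19186 protein-coding genes. The third HEK WT library of NO had a TMM factor of 1.40, against 0.69 and 0.62 for the other HEK WT libraries. The HEK UL1 KO libraries of NO had 1.34, 1.09 and 1.15, so the first 2 HEK WT libraries lay lowest. The counts of calls and the family totals in NO are also given without the third HEK WT library, where low TMM factor and genotype go together. HNRNPUL1 had 288 to 360 counts in HEK UL1 KO and 1290 to 1495 in HEK WT in CN, which gave a log2 fold change of -1.83 (SE 0.0828, edgeR adjusted p = 2.12e-07), and it fell in NO as well, from 15.4 to 3.84 CPM (adjusted p = 0.00649). Of 6 markers of the kidney line, 4 rose and 1 fell in CN, beside 15.6% and 22.3% of all genes tested, and all 6 were detected in every library. VIM fell in CN from 31.8 to 11.4 CPM while KRT8 rose from 0.522 to 2.58 CPM (edgeR adjusted p = 9.16e-06 and 3.39e-06). In a bulk sample, more cells that express a gene and more RNA per cell cannot be told apart.

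In CN the deposited counts of the clustered protocadherin genes were higher in HEK UL1 KO. Of the 53 members, 38 passed the filter on low counts and 37 were called at an adjusted p under 0.05, all of them higher in HEK UL1 KO, while 15.6% of the 27234 genes tested were called higher. All 15 alpha genes, 21 of 22 gamma genes and PCDHB2, the only beta gene that passed the filter, were called. Since a read of the constant region is counted in every alpha row, these calls are not separate findings. The median log2 fold change over the tested members was 0.67, against 0.04 over all tested genes. Among the alpha genes it climbed along the chromosome, from 1.51 for PCDHA1 (SE 0.207, adjusted p = 2.70e-04) through 1.99 for PCDHA9 to 3.12 for PCDHAC2 (SE 0.348, adjusted p = 7.13e-05). Among the gamma genes it lay between 0.39 and 0.74. PCDHGC4 was the member tested and not called (log2 fold change 0.39, edgeR adjusted p = 0.223).

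**Figure D1:**
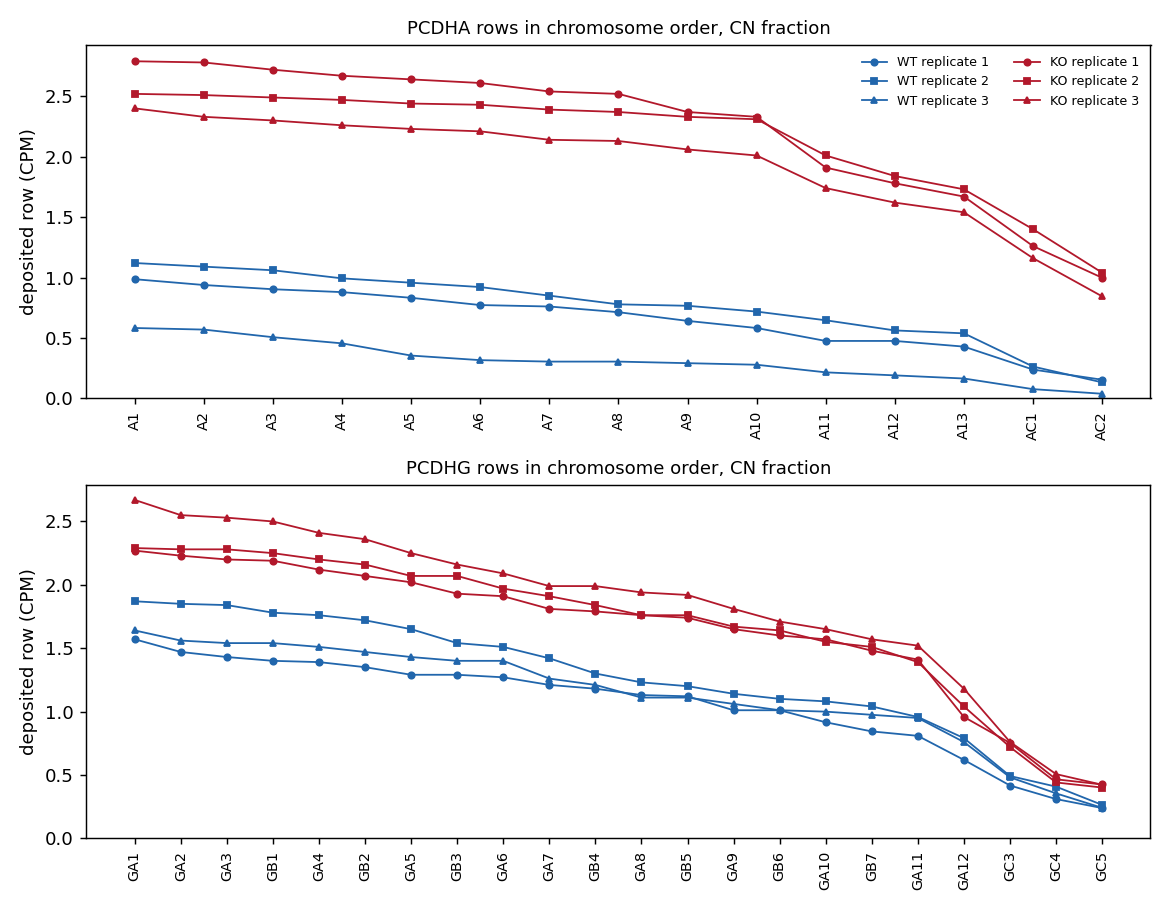
Deposited counts of the PCDHA genes (top) and PCDHG genes (bottom) in the CN fraction as CPM on the y axis, with the genes in chromosome order on the x axis and 1 line for each of 6 libraries, blue for HEK WT and red for HEK UL1 KO. Each line only falls from left to right, because each gene's count includes all reads of the genes after it, and the red alpha lines stay high until PCDHA10 while the blue ones lose 36.2% to 52.2% of their reads before it.

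The total of each family gives the size of the change without counting a read more than once. The alpha total was 83, 94 and 46 reads in HEK WT and 204, 189 and 142 reads in HEK UL1 KO. Every HEK UL1 KO library was thus above every HEK WT library, although HEK WT was sequenced more deeply in this fraction, and the level was 0.898 ± 0.282 CPM in HEK WT and 2.57 ± 0.201 CPM in HEK UL1 KO (SD, n = 3; log2 fold change 1.51, SE 0.208, edgeR adjusted p = 2.68e-04). The beta genes summed to 33, 37 and 24 reads in HEK WT and 80, 64 and 61 in HEK UL1 KO. Those groups did not overlap either, and the level was 0.379 ± 0.0704 and 0.992 ± 0.125 CPM (SD, n = 3; log2 fold change 1.38, SE 0.219, edgeR adjusted p = 6.94e-04). The gamma total was 132, 156 and 130 reads in HEK WT and 166, 172 and 158 in HEK UL1 KO. This was the smallest change of the 3 families, from 1.69 ± 0.155 to 2.41 ± 0.223 CPM (SD, n = 3; log2 fold change 0.51, SE 0.131, edgeR adjusted p = 0.0116), and it was not called by DESeq2 (adjusted p = 0.0555) or in a single fit of all 12 libraries (adjusted p = 0.149). The families' changes were not tested against each other. An exact two-sided permutation test of the CPM gave p = 0.1 for each family, the smallest value that 3 libraries against 3 allow.

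Segments placed the alpha change in the 3′ part of the cluster. The 9 segments from PCDHA1 to PCDHA9, which cover 69.8 kb, together held 34, 34 and 24 reads in HEK WT and 34, 16 and 23 reads in HEK UL1 KO. The genotypes overlapped there, at 0.371 CPM in HEK WT and 0.356 CPM in HEK UL1 KO on average. From the start of PCDHA10 to the end of the cluster, over 156 kb, there were 49, 60 and 22 reads in HEK WT and 170, 173 and 119 in HEK UL1 KO, which is 0.526 and 2.21 CPM. The border at PCDHA10 was set after the values had been seen, so no test is given for the blocks. All 7 segments from PCDHA10 on separated the genotypes without overlap, with HEK UL1 KO higher. Over the whole tables in CN, 24.7% of the 27234 genes tested and 21.3% of the 17750 genes with 5 to 30 counts in their highest library separated in this direction. By contrast, of the 9 segments before it the only ones without overlap, PCDHA4 and PCDHA5, were lower in HEK UL1 KO at 1 to 8 reads per library, beside 4.19% of the genes with so few counts.

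**Figure D2:**
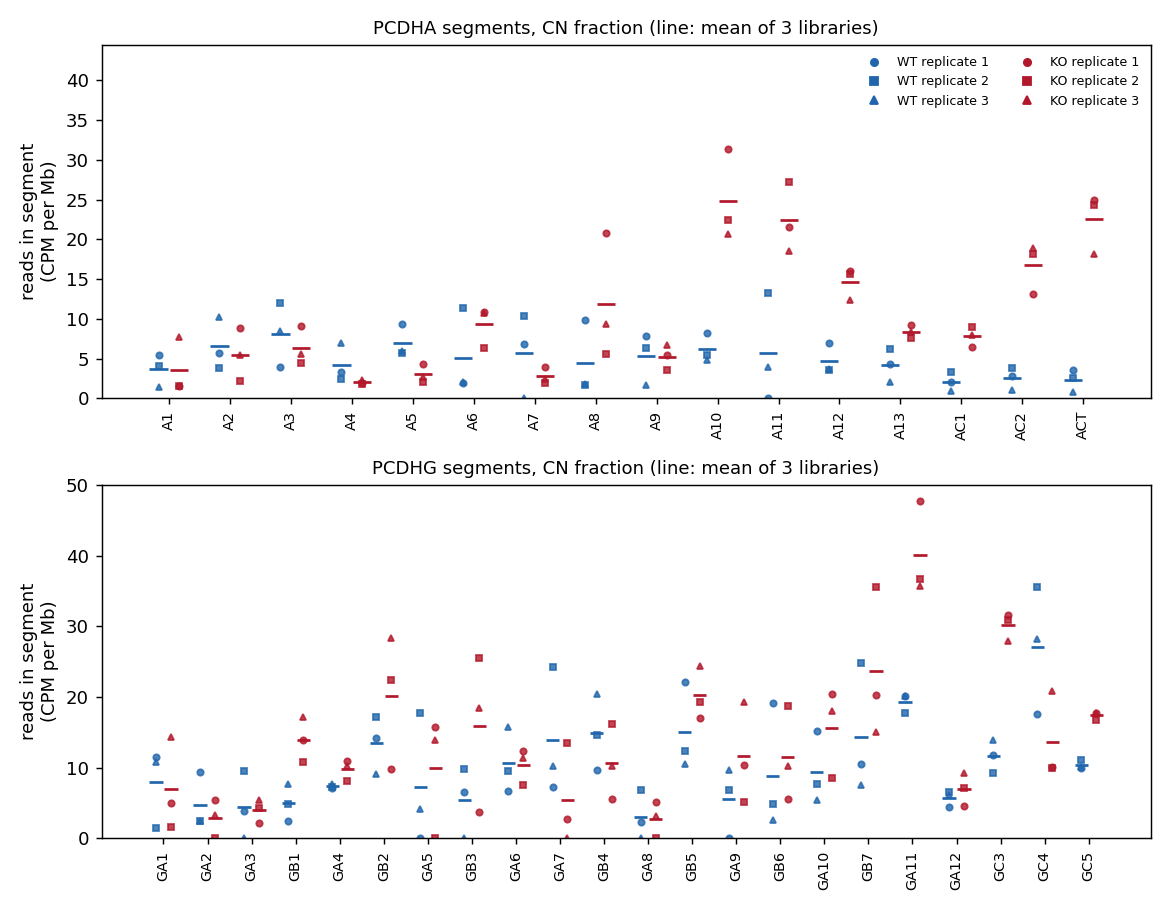
Reads per segment in the CN fraction, in CPM per Mb of segment on the y axis, for the PCDHA segments (top) and the PCDHG segments (bottom) in chromosome order, with 1 point per library, blue for HEK WT and red for HEK UL1 KO, and a line at the mean of 3 libraries. The red points stand above the blue ones from A10 to ACT and at GA11, GC3 and GC5, and the genotypes are mixed over most of the other segments.

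PCDHA10 was the first segment along the cluster that was higher in HEK UL1 KO without overlap. It had 9, 6 and 5 reads in HEK WT and 30, 22 and 16 reads in HEK UL1 KO, from 0.0806 to 0.325 CPM (log2 fold change 1.99, SE 0.384, edgeR adjusted p = 0.00228). Per length it was the highest alpha segment in HEK UL1 KO, at 24.9 CPM per Mb, and it stood at 6.18 CPM per Mb in HEK WT. The pseudogene PCDHA14 lies inside this segment and had 1, 2 and 1 reads in HEK WT and 5, 3 and 4 in HEK UL1 KO, too few to pass the filter. The 2 segments that follow were also too low to be tested. PCDHA11 had 0, 7 and 2 reads against 10, 13 and 7, and PCDHA12 had 4, 2 and 2 reads against 8, 8 and 5. Both were higher in every HEK UL1 KO library.

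PCDHAC1 and PCDHAC2 are the C-type genes at the end of the alpha cluster, which in neurons are mostly used by all cells rather than chosen at random. The PCDHAC2 segment held 3, 4 and 1 reads in HEK WT and 12, 17 and 14 in HEK UL1 KO (log2 fold change 2.63, SE 0.498, edgeR adjusted p = 0.00205). The PCDHAC1 segment held 7, 11 and 3 reads in HEK WT and 19, 27 and 19 in HEK UL1 KO (log2 fold change 1.87, SE 0.429, edgeR adjusted p = 0.00622). Neither pair of groups overlapped. The PCDHA13 segment, which is 44.2 kb long and contains the intron that leads to PCDHAC1, had 16, 23 and 7 reads against 30, 25 and 22, with a log2 fold change of 1.00 and an edgeR adjusted p of 0.0608 (0.0217 without the second HEK WT library). In this window of the cluster the densities in HEK UL1 KO were uneven, at 8.41 CPM per Mb for PCDHA13, 7.80 for PCDHAC1 and 16.8 for PCDHAC2.

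The constant region, which holds the exons that the alpha genes share, changed most of all alpha segments tested. Its reads were counted over 33.4 kb with introns included, so they are not reads of the exons alone. PCDHACT had 10, 7 and 2 reads in HEK WT and 61, 61 and 36 reads in HEK UL1 KO. That is 0.0759 against 0.752 CPM (log2 fold change 3.27, SE 0.388, edgeR adjusted p = 1.04e-04). As a share of all alpha reads it rose from 7.95% ± 3.87 to 29.2% ± 3.52 (SD, n = 3), a difference of 21.2 points that was 10.7 points when the reads of each segment were divided by its length. The groups did not overlap, with an exact two-sided permutation p of 0.1 and 0.415 after adjustment over the 54 segments of the 3 families. The region makes up 14.8% of the length of the cluster, so its share lay below its length in HEK WT and above it in HEK UL1 KO. PCDHA10, PCDHAC1, PCDHAC2 and PCDHACT kept an adjusted p under 0.05 in all 12 other fits that tested them, of which the highest was 0.0313. They did not pass a filter of 10 counts in every library, and they reached the main filter only with the HEK UL1 KO libraries.

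**Figure D3:**
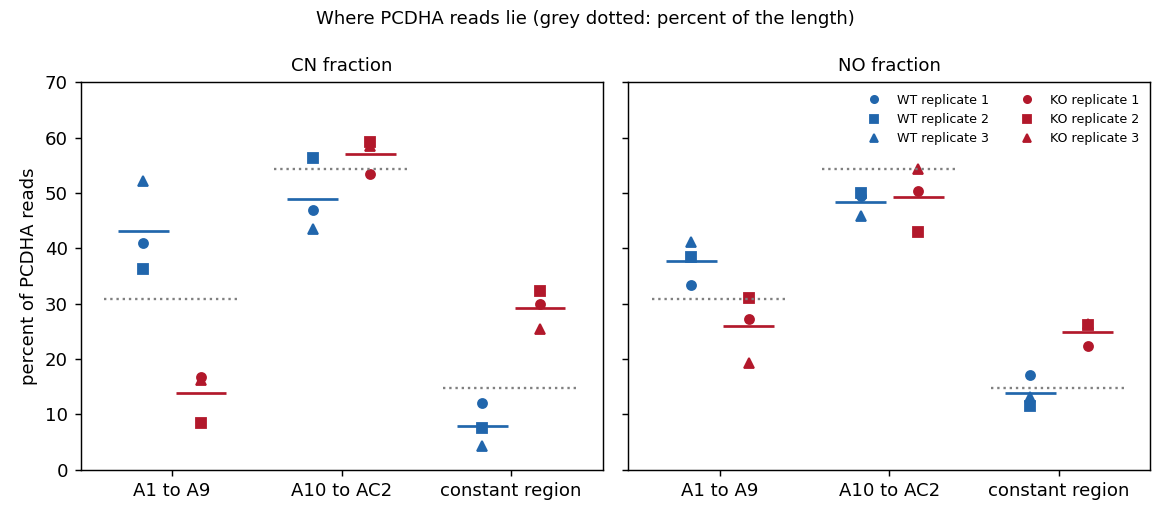
Percent of all PCDHA reads (y axis) in 3 stretches of the cluster (x axis) for each library of the CN fraction (left) and the NO fraction (right), blue for HEK WT and red for HEK UL1 KO, with lines at the means of 3 libraries and a dotted grey line at the stretch's percent of the length. The constant region holds 7.95% of the reads in HEK WT and 29.2% in HEK UL1 KO on average in CN, with no overlap, and the shares of PCDHA1 to PCDHA9 go the other way.

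In the gamma cluster few segments were called, and 5 of 22 did not overlap between the genotypes, all higher in HEK UL1 KO, which is close to the 21.3% of genes with so few counts. Of these PCDHGB1, with 1, 2 and 3 reads against 5, 4 and 5, and PCDHGA4, with 3 reads in each HEK WT library against 4, 3 and 3, were too low to be tested. PCDHGA11, one of the last A-type genes, had 16, 14 and 15 reads in HEK WT and 33, 26 and 20 in HEK UL1 KO. The groups did not overlap, and it was the densest gamma segment in HEK UL1 KO, at 40.0 CPM per Mb against 19.3 in HEK WT (log2 fold change 1.05, SE 0.295, edgeR adjusted p = 0.0174). PCDHGC3, the C-type gene that is broadly used outside the nervous system, had 9, 7 and 10 reads in HEK WT and 21, 21 and 15 in HEK UL1 KO, with no overlap (log2 fold change 1.37, SE 0.348, edgeR adjusted p = 0.0108). PCDHGC5 with the constant exons had 20, 22 and 19 reads against 31, 30 and 25 (log2 fold change 0.75, SE 0.261, edgeR adjusted p = 0.044), and it was called in 3 of the 13 other fits. DESeq2 did not call these 3 segments, with adjusted p values of 0.0774, 0.0536 and 0.196, and without the first HEK UL1 KO library they were at 0.106, 0.0561 and 0.141.

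The segment between them did not follow. PCDHGA12, 45.5 kb long with the intron in front of PCDHGC3, had 17, 25 and 22 reads in HEK WT and 15, 24 and 25 in HEK UL1 KO (log2 fold change 0.27, edgeR adjusted p = 0.563). PCDHGC4, a C-type gene between PCDHGC3 and PCDHGC5, had 6, 12 and 9 reads in HEK WT and 3, 3 and 5 in HEK UL1 KO. It was the densest gamma segment in HEK WT, at 27.0 CPM per Mb against 13.6 in HEK UL1 KO, but the CPM overlapped and it was too low to be tested. As a share of the gamma reads PCDHGC3 rose from 6.33% ± 1.66 to 11.5% ± 1.71 and PCDHGA11 from 10.9% ± 1.67 to 15.9% ± 3.67, while PCDHGC4 went from 6.39% ± 1.64 to 2.24% ± 0.802 (SD, n = 3). None of these 3 shares overlapped between the genotypes, at an exact permutation p of 0.1 each and 0.415 after adjustment. The 17 segments from PCDHGA1 to PCDHGB7 had 0 to 11 reads per library, and none passed the filter.

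In all, the segments of 9 members passed the filter in CN and 7 were called, all higher in HEK UL1 KO: PCDHA10, PCDHAC1, PCDHAC2, PCDHB2, PCDHGA11, PCDHGC3 and PCDHGC5. In the same fit 15.5% of 27205 entries were called higher. DESeq2 called 3 of the 7, PCDHA10, PCDHAC1 and PCDHAC2. PCDHA10, PCDHAC2 and PCDHB2 had fewer than 10 reads in every HEK WT library. PCDHAC1 had 7, 11 and 3 reads in HEK WT, PCDHGC3 9, 7 and 10, and the constant region 10, 7 and 2. All of these reached the filter only with the HEK UL1 KO libraries, and such a segment could hardly be called in the other direction.

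The beta genes have separate spans, so their deposited counts do not hold each other's reads. In CN, PCDHB2 had the most reads of them in HEK UL1 KO, with 19, 10 and 8, against 5, 6 and 2 in HEK WT. The groups did not overlap, and the level rose from 0.0522 to 0.176 CPM (log2 fold change 1.72, SE 0.510, edgeR adjusted p = 0.022). It was not called by DESeq2 (adjusted p = 0.0665), nor without the first HEK WT library (0.0552) or the first HEK UL1 KO library (0.141). The other 15 beta genes had 0 to 11 reads per library and were not tested. All 16 beta genes had a higher mean CPM in HEK UL1 KO, and 6 did not overlap between the genotypes: PCDHB2, PCDHB8, PCDHB9, PCDHB12, PCDHB13 and PCDHB14. Of the 17750 genes with 5 to 30 counts in their highest library of this fraction, 73.4% had a higher mean CPM in HEK UL1 KO and 21.3% were higher without overlap. Of the genes that were among the 3 highest of the family per length of exon without being called, PCDHB15 had 5, 6 and 2 reads against 7, 2 and 5, PCDHB13 had 5, 4 and 3 against 5, 11 and 5, and PCDHB8 had 2, 1 and 2 against 4, 5 and 9. The beta genes cover 33.0% of the beta locus and held 40.2% to 57.1% of its reads in HEK WT and 52.9% to 55.2% in HEK UL1 KO. The remaining reads lay between the genes on the same strand.

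**Figure D4:**
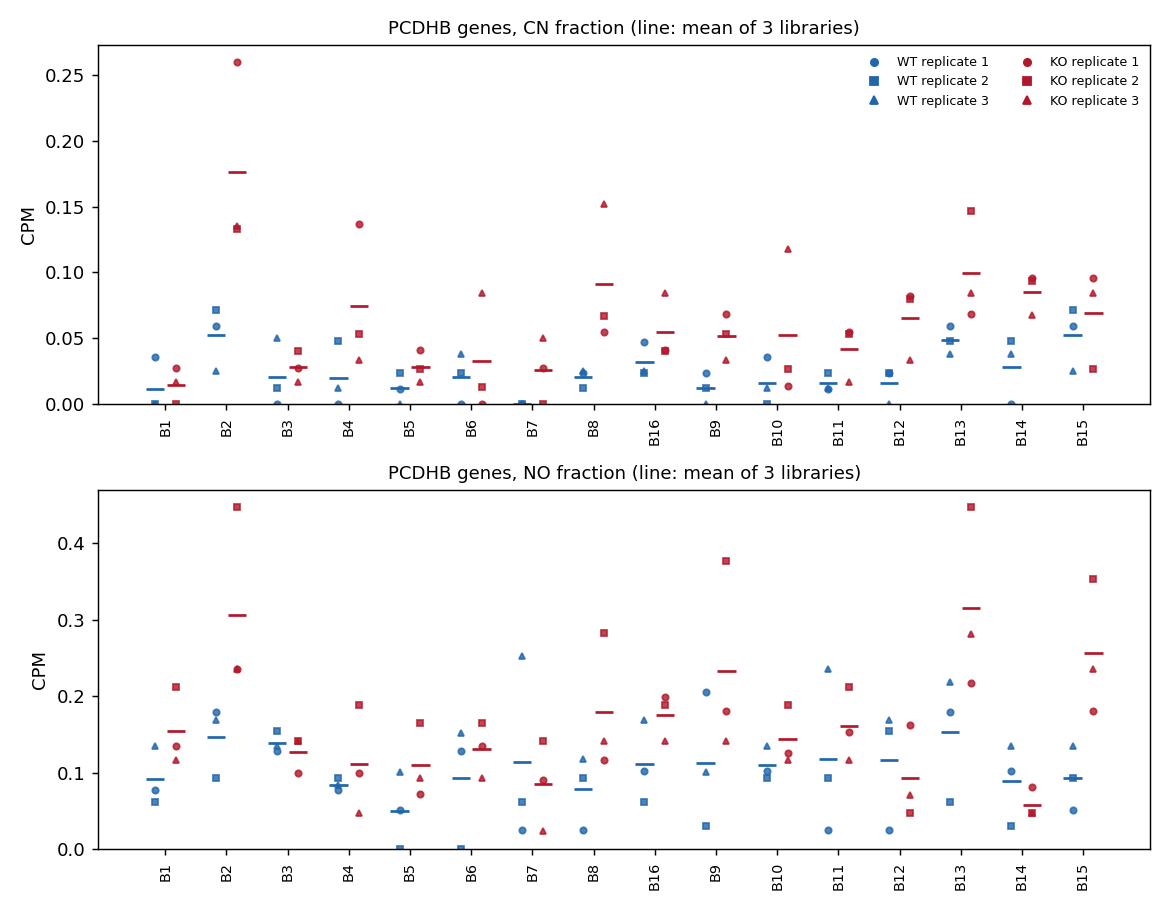
CPM of the 16 PCDHB genes on the y axis, in chromosome order on the x axis, in the CN fraction (top) and the NO fraction (bottom), with 1 point per library, blue for HEK WT and red for HEK UL1 KO, and a line at the mean of 3 libraries. All 16 red means lie above the blue ones in CN, where PCDHB2 reaches 19 reads, and 12 of 16 do in NO, beside 73.4% and 60.0% of the genes with 5 to 30 counts in their highest library.

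In NO the tested members also had higher values in HEK UL1 KO, and 1 of the differences passed the test. Of 40 members that passed the filter, 1 was called, PCDHAC2, which was higher in HEK UL1 KO, while 0.365% of 34836 genes were called higher. All 40 had a positive log2 fold change, with a median of 0.60 against 0.004 over all tested genes. An unadjusted p under 0.05 was found for 17, of which 15 were alpha genes. DESeq2 called 5. The alpha and gamma counts share reads, so these are not separate findings. For counts at an unadjusted p or by DESeq2, here and below, the share of all genes is not given. Such counts therefore cannot be set against a background. Of 25 segments of members tested, 23 were positive, and 4 had an unadjusted p under 0.05. The PCDHAC2 count, which holds its own segment and the constant region, was 21, 15 and 54 reads in HEK WT and 168, 78 and 94 in HEK UL1 KO (log2 fold change 1.49, SE 0.330, edgeR adjusted p = 0.0393). This call was lost with total counts (adjusted p = 0.688), with a filter of 10 counts in every library (0.0725), and without either of the first 2 HEK WT libraries (0.216 and 0.0972) or either of the last 2 HEK UL1 KO libraries (0.097 and 0.111). The first HEK UL1 KO library and the third HEK WT library were the highest of their groups in reads, and they are also the ones with the largest TMM-scaled size.

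The segments showed that the call in NO came with the constant region. PCDHACT had 19, 9 and 39 reads in HEK WT and 139, 62 and 72 in HEK UL1 KO, or 0.475 and 1.47 CPM (log2 fold change 1.57, SE 0.347, edgeR adjusted p = 0.0389). Its share of the alpha reads was 13.9% ± 2.87 in HEK WT and 24.9% ± 2.23 in HEK UL1 KO (SD, n = 3), a difference of 11.0 points, or 4.89 by reads per length, with no overlap, an exact permutation p of 0.1 and 0.736 after adjustment over 54 segments. The call was lost under the same scaling and without the same libraries, with adjusted p values up to 0.688, while without the third HEK WT library the log2 fold change was 1.88 (adjusted p = 0.00215). Of the segments of members, 25 passed the filter and 0 were called by edgeR, where 0.362% of all entries were called higher. There were 4 at an unadjusted p under 0.05, and DESeq2 called 0 of the members' segments.

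In NO, reads were spread over the 5′ part of the alpha cluster as well. PCDHA1 to PCDHA9 together had 37, 30 and 122 reads in HEK WT and 170, 74 and 53 in HEK UL1 KO, which is 1.31 and 1.51 CPM with overlapping libraries. From PCDHA10 to the end of the cluster there were 74, 48 and 175 reads against 453, 164 and 221, or 2.11 and 4.38 CPM, and the CPM did not overlap. PCDHA12 had the highest alpha density in HEK UL1 KO, at 47.1 CPM per Mb, with 6, 0 and 7 reads in HEK WT and 26, 12 and 19 in HEK UL1 KO (log2 fold change 1.65, edgeR adjusted p = 0.201). In the gamma cluster PCDHGC3 was again among the segments without overlap, with 9, 10 and 13 reads against 58, 26 and 22 (log2 fold change 1.13, edgeR adjusted p = 0.175). PCDHGA11 had 20, 15 and 14 reads against 51, 26 and 26 (log2 fold change 0.49, adjusted p = 0.547), and here its CPM overlapped.

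**Figure D5:**
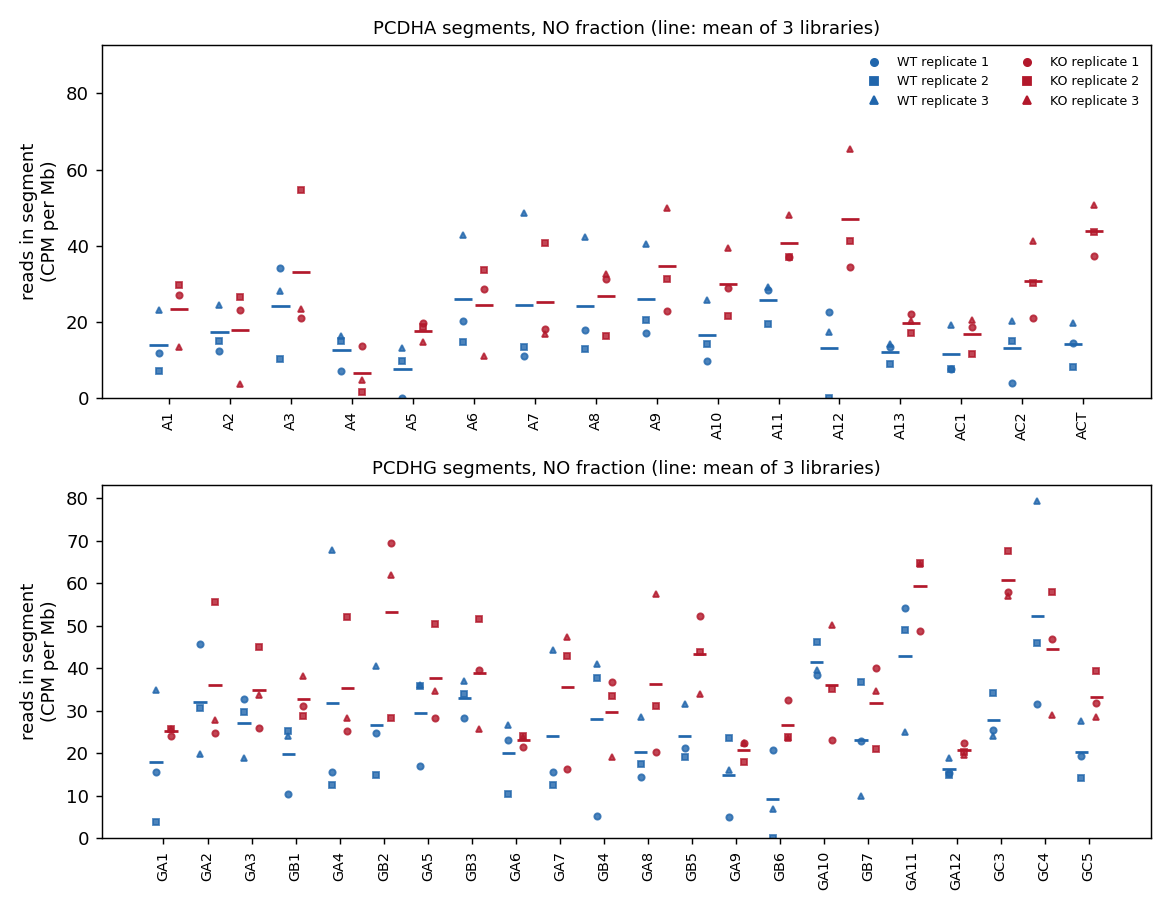
Reads per segment in the NO fraction, in CPM per Mb of segment on the y axis, for the PCDHA segments (top) and the PCDHG segments (bottom) in chromosome order, with 1 point per library, blue for HEK WT and red for HEK UL1 KO, and a line at the mean of 3 libraries. In the alpha cluster 6 of 16 segments do not overlap between the genotypes, all higher in HEK UL1 KO, and in the gamma cluster 6 of 22 do not, also all higher, beside 11.0% of the 34836 genes tested in NO and 8.43% of the 17536 genes with 5 to 30 counts in their highest library.

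The family totals in NO were not called by edgeR. The alpha total was 111, 78 and 297 reads in HEK WT and 623, 238 and 274 in HEK UL1 KO, at 3.42 ± 1.39 and 5.88 ± 0.471 CPM (SD, n = 3; log2 fold change 0.77, SE 0.299, edgeR adjusted p = 0.219). The gamma total went from 4.30 ± 0.671 to 6.01 ± 0.449 CPM (log2 fold change 0.48, edgeR adjusted p = 0.375). The beta total went from 1.70 ± 0.662 to 2.64 ± 0.839 CPM (log2 fold change 0.61, edgeR adjusted p = 0.366), and only there the libraries overlapped. Without the third HEK WT library of NO, whose levels were the highest of its group for all 3 families, 19 members were called, namely all 15 alpha genes and 4 gamma genes, all higher in HEK UL1 KO, while 9.87% of 36336 genes were called higher in that fit. The alpha rows share the reads of the constant region, and by segments 2 members were called, PCDHAC1 and PCDHAC2. The alpha and beta totals were then called as well (log2 fold change 1.14 and 0.96, adjusted p = 0.0047 and 0.023), and the gamma total was not (0.60, adjusted p = 0.058). The remaining HEK WT libraries had the lowest TMM factors of NO, so scaling and genotype cannot be told apart in that fit.

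The effect of the knockout was not shown to differ between the fractions for any member. In the interaction test of genotype and fraction 47 members passed the filter and 0 were called, where 0.114% of 37806 genes were called in either direction. DESeq2 also called 0. The 15 alpha genes all had a negative interaction, meaning a smaller rise in NO than in CN, with a median log2 value of -0.88 against -0.06 over all tested genes. Of the 22 gamma genes 17 had a positive interaction, with a median of 0.08, and the median over the 47 members was -0.02. The largest alpha value was that of PCDHAC2, at -1.52 (SE 0.506, unadjusted p = 0.00762, adjusted p = 1.0), and 5 members, all alpha, had an unadjusted p under 0.05. The alpha counts share reads, so these are not separate findings. Of 13 segments of alpha members tested, 6 had a positive interaction, with a median of -0.17, and 0 had an unadjusted p under 0.05. The constant region was at -1.58 (SE 0.546, edgeR unadjusted p = 0.0096) and was not called.

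Within a genotype, the deposited counts of most tested clustered protocadherin genes were called higher in NO than in CN. The alpha and gamma counts share reads, and by segments the share called was near that of all entries. In HEK WT 37 members passed the filter and 34 were called higher in NO, beside 31.9% of 29340 genes, and in HEK UL1 KO 32 of 40 were called higher, beside 40.7% of 34468 genes. The counts differed between settings. In HEK WT 3 members were called with total counts and 16 with DESeq2, which also has another test and filter. With the replicate number as a block in the fit, 3 were called in HEK WT. In HEK UL1 KO total counts gave 39 calls and DESeq2 6, with 12 when no filter was used. By segments, 2 of 6 were called higher in NO in HEK WT, PCDHAC1 (log2 fold change 2.09, edgeR adjusted p = 0.0181) and PCDHGA12 (1.09, adjusted p = 0.0327), while 31.8% of all entries of that fit were called higher. In HEK UL1 KO 7 of 19 were called, beside 40.7% of all entries. Both shares were near those of the whole fit. In HEK UL1 KO the largest differences were those of PCDHGA3 (2.41, adjusted p = 0.00148) and PCDHA9 (1.99, adjusted p = 0.00355). PCDHGA3 had 1, 2 and 2 reads in CN and 18, 12 and 9 in NO. PCDHA9 had 3, 2 and 3 reads in CN and 19, 10 and 16 in NO. Both segments reached the filter only with the NO libraries, so they could hardly be called in the other direction. The alpha constant region was higher in NO than in CN in HEK WT (log2 fold change 2.23, edgeR adjusted p = 0.0117) and was not called in HEK UL1 KO (0.33, adjusted p = 0.156).

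Of 27 genes for CTCF, cohesin, DNA methylation and repressors, known as regulators of the clustered protocadherin promoters, all were tested in CN, where 15 fell and 2 rose in HEK UL1 KO, beside 22.3% of all 27234 genes tested that fell and 15.6% that rose. Of these regulators 0 were called by edgeR in NO, where 6 had an unadjusted p under 0.05. Their median log2 fold change in CN was -0.32, against 0.04 over all genes. Among those that fell were STAG2, a cohesin subunit, from 82.3 to 46.9 CPM (log2 fold change -0.81, edgeR adjusted p = 5.07e-05), TET2, which oxidises methylcytosine, from 14.6 to 8.51 CPM (-0.78, adjusted p = 2.88e-05), and STAG1, the alternative cohesin subunit, from 67.3 to 41.2 CPM (-0.71, adjusted p = 8.43e-05). The part of these genes in the protocadherin differences was not tested.

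Genes around the clusters on 5q31 did not rise as a group. Of 25 neighbours, 21 were tested in CN, where 15.6% of all genes tested rose and 22.3% fell. Of these neighbours 2 rose and 3 fell, with a median log2 fold change of -0.17. Those that rose were ARAP3, from 0.194 to 0.376 CPM (log2 fold change 0.94, edgeR adjusted p = 0.0373), and PCDH1, a non-clustered protocadherin, from 0.211 to 0.392 CPM (0.89, adjusted p = 0.031). RNF14 and NDFIP1, an E3 ubiquitin ligase and an adaptor of such ligases, fell (-0.42 and -0.35, adjusted p = 0.00303 and 0.0179). The summed level of the neighbours was 72.4 to 78.3 CPM in HEK WT and 65.3 to 67.3 CPM in HEK UL1 KO. In NO 0 of 20 were called by edgeR, and 0 had an unadjusted p under 0.05.

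The protocadherins outside the clusters changed in both directions. Of 11 genes, 9 were tested in CN, 4 rose and 2 fell, beside 15.6% and 22.3% of all genes tested. PCDH19 had 228, 259 and 179 counts in HEK WT and 1825, 1762 and 1165 in HEK UL1 KO (log2 fold change 3.08, SE 0.127, edgeR adjusted p = 1.41e-07), and it was also higher in NO (1.93, adjusted p = 0.00263). PCDH11X rose from 2.90 to 8.66 CPM (log2 fold change 1.58, edgeR adjusted p = 2.92e-05), while PCDH10 fell from 4.39 to 2.35 CPM (-0.90, adjusted p = 0.00646). Both PCDH19 and PCDH10 belong to the delta protocadherins, which like the clustered ones act in cell adhesion.

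Of 16 partners of the clustered protocadherins in signalling and shedding, 3 rose and 7 fell in CN, beside 15.6% and 22.3% of all genes tested. In NO 0 were called by edgeR and 2 had an unadjusted p under 0.05. PTK2B, the kinase that binds the shared cytoplasmic part of the alpha and gamma proteins, rose from 1.08 to 1.93 CPM (log2 fold change 0.83, edgeR adjusted p = 0.00154). CTNNB1, which encodes beta-catenin, and NCKAP1, a subunit of the WAVE complex, fell (-0.68 and -0.62, adjusted p = 9.99e-05 and 1.53e-04), and CYFIP1 of the same complex rose (0.60, adjusted p = 0.00116). The 4 pseudogenes PCDHB17P, PCDHB18P, PCDHB19P and PCDHGB8P had at most 15 reads in any library and were not tested.

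Markers of neurons, the cells in which these genes are best known, did not move as a group. Of 8 markers, 1 rose and 2 fell in CN, beside 15.6% and 22.3% of all genes tested. SNAP25 rose from 0.267 to 0.927 CPM (log2 fold change 1.78, edgeR adjusted p = 2.53e-04), and STMN2 (-1.39, adjusted p = 0.033) and NEFM (-0.54, adjusted p = 0.037) fell. The summed level of the 8 markers was 9.63 to 15.3 CPM in HEK WT and 11.7 to 15.1 CPM in HEK UL1 KO. Of 10 markers of blood, connective tissue, epithelial and endothelial cells, 6 were tested in CN and 3 rose, beside 15.6% of all genes tested. The 10 summed to 1.25 to 2.40 CPM in HEK WT and 3.04 to 4.15 CPM in HEK UL1 KO. The third HEK WT library of CN had the fewest alpha reads of its group and also the lowest STMN2, DCX and PECAM1 counts. It also had the lowest TMM factor of CN, at 0.76 against 1.01 to 1.09 in the others, and the highest rRNA share, at 78.7%. Without it the alpha, beta and gamma totals in CN were still called by edgeR. The part of these low levels in the protocadherin differences was not tested.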

How the data were processed

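RNA of 2 fractions (NO and CN) and 2 genotypes (HEK UL1 KO and HEK WT), with 3 replicates each, was analysed from raw counts per gene, which the authors deposited as 1 table per fraction without normalization. Total RNA was sequenced without rRNA depletion in single reads of 75 bases, and the submitters' processing notes name FastQC 0.11.4, cutadapt 3.7, STAR 2.7.8, featureCounts, DESeq2 and the build GRCh38. The study allowed 20 alignments per read. The counting options are not given in the sources used here. All 12 columns were matched to samples by their labels.

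The genotypes were compared within each fraction, the fractions within each genotype, and the interaction in all 12 libraries, with edgeR 4.0.16 in R 4.3.3 (quasi-likelihood test, filterByExpr with a minimum count of 10 and a minimum total of 15, TMM, Benjamini-Hochberg adjustment over all genes, calls under 0.05), and DESeq2 1.42.0 as an alternative. Standard errors were taken as the log2 fold change divided by the root of F. The design had treated member counts as separate. Because they nest, family totals are the outermost gene's count for alpha and gamma, and shares are shares of reads by segment, with the segment's length in place of exon length in the alternative per kb. The segments were added after the data had been seen and were tested in place of the rows, also over all genes. For single values the test was an exact two-sided permutation test. Members were named singly if called in either fraction or among the 3 highest of their family per kb of exon in either genotype, and other lists were fixed with at most 4 names each (1 gene is not reported here), while further segments (PCDHA4, PCDHA5, PCDHA11 to PCDHA14, PCDHGA12, PCDHGC4, PCDHGB1 and PCDHGA4) were named, and the genes with 5 to 30 counts in their highest library were taken for comparison, after values were seen. The members and lists were chosen with earlier results of these data known. The main fits did not pair libraries by replicate number. Whether CN and NO libraries of the same number came from the same cells is not stated in the sources used here. Scripts were tested on simulated data. False calls made up 7.51% of the edgeR calls in CN, 7.62% in NO and 11.54% for the interaction. For NO against CN they made up 10.31% in HEK WT and 11.95% in HEK UL1 KO. With DESeq2 they were 7.11% in CN and 13.22% in NO. All these shares exceeded the nominal level of 0.05. Depth limits most segments to under 30 reads per library, and p values cover the spread between replicates of 1 line per genotype.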

Additional observations from a re-analysis of the deposited data

Results flagged for a closer look

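The PCDHA5 segment met a rule for opposite directions in the 2 fractions. In CN it had 5, 3 and 3 reads in HEK WT and 2, 1 and 1 in HEK UL1 KO, and its mean level was 0.0444 CPM in HEK WT and 0.0192 CPM in HEK UL1 KO with no overlap. In NO it had 0, 2 and 5 reads in HEK WT and 14, 5 and 4 in HEK UL1 KO, at 0.0487 and 0.113 CPM with no overlap. The segment did not pass the filter in either fraction, so the difference was not tested. At 0 to 14 reads per library the counts are near the limit of detection, and 1 such segment was found among 54.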

How the results depend on the processing

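Depth limits the segments, and most had under 10 reads in some libraries. In CN, 37 members were called; a single fit of all 12 libraries called 20 and segment counts called 7. The number of called segments with the constant region was 8, with 4 in DESeq2, 2 with at least 10 counts in every library and 5 with the replicate block. The gamma total in CN was 0.44 in DESeq2 (adjusted p = 0.0555) and 0.43 in 1 fit of all libraries (0.149). In NO, 1 member was called; DESeq2 called 5, no filter 4, all libraries in 1 fit 7 and an unadjusted p 17, and 0 were called with total counts, with 10 counts in every library, with the lowest count of the family subtracted and with segment counts. The segments in NO gave 1 call, with 0 for total counts and for 10 counts in every library and 2 with all libraries. The interaction gave 0 calls in every fit and 5 at an unadjusted p under 0.05. NO against CN in HEK WT gave 34 calls, but 16 with DESeq2, 3 with total counts, 18 with no filter, 3 with the replicate block and 2 with segments; in HEK UL1 KO it gave 32, but 6 with DESeq2, 12 with no filter and 7 with segments. Every correlation between same-numbered libraries was under 0. For CN against NO this does not show whether the libraries came from the same cells. The share of the alpha constant region rose by 21.2 points in CN and 11.0 in NO, or 10.7 and 4.89 by reads per kb. The PCDHAC2 share in CN rose by 4.90 points, or 7.97 without the constant region and 7.14 per kb. The cause of these shifts was not tested.

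Leaving out 1 library at a time gave 31 to 37 members in CN, 0 to 19 in NO, 15 to 35 for NO against CN in HEK WT, 16 to 35 in HEK UL1 KO and 0 for the interaction. It gave 4 to 9 called segments in CN and 0 to 3 in NO. In NO the count of members was 0 without HEK WT replicate 1 or 2 or HEK UL1 KO replicate 2 or 3, and 19 without HEK WT replicate 3. The fewest called segments in CN came without HEK UL1 KO replicate 1. The totals ranged from 1.33 to 1.71 (alpha), 1.28 to 1.51 (beta) and 0.45 to 0.58 (gamma) in CN, and from 0.59 to 1.14, 0.37 to 0.96 and 0.43 to 0.60 in NO. The constant share changed by 19.4 to 23.3 points in CN and 9.76 to 12.5 in NO. The changes in share in CN were 4.09 to 6.08 points for PCDHAC2, 3.01 to 6.62 for PCDHGA11 and 4.20 to 6.10 for PCDHGC3, and in NO 0.0975 to 3.04, -3.18 to 1.08 and 2.25 to 4.03. The PCDHGA11 share in NO was lower in HEK UL1 KO by -0.567 points, and higher by 1.08 without HEK WT replicate 1, 0.402 without HEK WT replicate 2 and 0.0198 without HEK UL1 KO replicate 1. For single genes and segments, 278 refits stayed on the same side of the threshold, 31 lost the call and 5 gained one, with no change of direction.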
